A study of Mus musculus with 6 samples.

Results

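TIAR KO MEF were set against WT MEF on 4 of the 6 arrays of the study, 2 per group. MEF, mouse embryonic fibroblasts, are connective tissue cells cultured from embryos, and both lines were immortalized. The WT line carries the strain label W4 and the TIAR KO line the label C57BL/6, and how many clones each line came from is not given in the sources used here, so the effects of TIAR loss, of strain and of the line itself cannot be told apart. The other 2 arrays held RNA of TIA1 KO MEF, with the strain label BALB/c, and are used below only for direct comparison. No group was treated, and total RNA was labelled with the dye Cy3. The study describes the 2 samples of a condition as different biological samples.

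TIAR, the product of Tial1, and its relative TIA1 are RNA-binding proteins that shuttle between nucleus and cytoplasm. They bind uridine-rich sequences, act on the choice of splice sites in the nucleus, and hold back the translation of mRNAs with AU-rich elements, among them those of inflammatory mediators, in the cytoplasm. Under stress they gather with stalled mRNAs in stress granules. Fibroblasts make the collagens, proteoglycans and elastic fibres of connective tissue, keep the Hox code of the body region they came from, and answer virus-like signals with interferon-induced genes.

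Values are the normalized log2 intensities that the authors deposited, averaged over the spots of a probe. The scanner software rated 23569 and 26295 of 55681 probes as well above background, hence detected, in WT MEF. In TIAR KO MEF the numbers were 24796 and 26011. A probe or gene is called up- or down-regulated where limma's Benjamini-Hochberg adjusted p was under 0.05 and the fold change above 2. Errors are the standard errors of the log2 fold change with n = 2 arrays per group, and a gene was read from its brightest probe. The correlation over probes was 0.990 between the WT arrays, 0.988 between the TIAR KO arrays and 0.971 between the group means. Where the lower group was not well above background on either array, the fold is given as "at least", taken against the lowest value rated well above background on each of its arrays or the probe's own value if that was higher. Where 1 array of the lower group was well above background, the value is given as measured and includes the background reading of the other array. This holds for Abcg1, Ccn5, Dcn, Des, Fmod, Hoxa9, Itga1, Krt18, Lef1, Lhx2, Mfap2, Mgst1, Rnf43, Rtp4, Smoc2 and Thy1. A bare number in brackets after a gene is its log2 fold change, TIAR KO over WT MEF, of a gene called by this test unless stated otherwise. Probe positions are on mm9, as the files give them.

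The targeted gene was read first. The array held 2 Tial1 probes on chromosome 7, printed here by the first 30 of their 60 bases as the file gives them, because they show which part of the gene was measured.
Tial1 probe at chr7:135583306-135583365: agtgagaggccaactaaagccaaagctgta
Tial1 probe at chr7:135585977-135586036: gaaacacgattgtaattcaccacaggctgc
The first probe was at 11.84 and 11.19 in WT and at 10.23 and 9.86 in TIAR KO MEF, and so fell by 1.47 ± 0.27 on the log2 scale (limma adjusted p = 0.0316). The second, the brighter of the pair, read 13.29 on the WT array whose spot was not an outlier and 9.80 and 11.78 in TIAR KO MEF, and did not pass the test (−2.50 ± 0.82, limma adjusted p = 0.188). Both groups of each probe were well above background, and the lower values did not overlap those of WT MEF. Which part of Tial1 the knockout removes is not given in the sources used here, so a probe outside that part would not check the label. The study itself reports that TIAR mRNA and protein were absent from the TIAR KO line, by RT-PCR and western blot. The brightest probe of Tia1 was at 10.57 and 8.71 in WT and at 9.75 and 9.77 in TIAR KO MEF, and the spread between the WT arrays was wider than the difference between the groups (0.12 ± 0.57). Gapdh, a glycolytic enzyme used as a reference, was at 18.65 and 18.73 in WT and at 18.72 and 18.82 in TIAR KO MEF, a difference of 0.08 ± 0.16.

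TIAR KO MEF had 1851 up-regulated (3.32%) and 1310 down-regulated probes (2.35%) among 55681. Read by gene, 1408 of 30404 genes were up-regulated (4.63%) and 916 down-regulated (3.01%). Among the 16270 genes detected on both arrays of WT or of TIAR KO MEF, these shares were 8.65% and 5.59%. The median log2 fold change of all genes was −0.02, that of the up-regulated ones 1.72 and that of the down-regulated ones −1.56. A difference above 16-fold was seen for 114 up-regulated and 42 down-regulated genes. Of the up-regulated genes, 441 (31.3%) were not well above background on either WT array, and 187 (20.4%) of the down-regulated genes were not so on either TIAR KO array. Of 741 called genes with several probes, 233 had each probe called in the same direction, and 1, Ccl25, had probes called in opposite directions. Ccl25 is named here after its values were seen.
The calls rested on all 4 arrays more than the fold changes did. Without TIAR KO replicate 1 limma called 0 genes, although 6421 had an unadjusted p under 0.05, so that each count of called genes below falls to 0 in that setting. Without TIAR KO replicate 2 limma called 206 genes up- and 65 down-regulated, without WT replicate 1 465 and 223, and without WT replicate 2 496 and 224. Of the 1408 up-regulated genes, 1228 kept a rise above 2-fold whichever array was left out, as did 757 of the 916 down-regulated genes for their fall. The gene lists described below are given by their counts and medians, without a test of the list, and can be read against the shares of all genes in the plot of called genes by list.

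**Figure D1:**
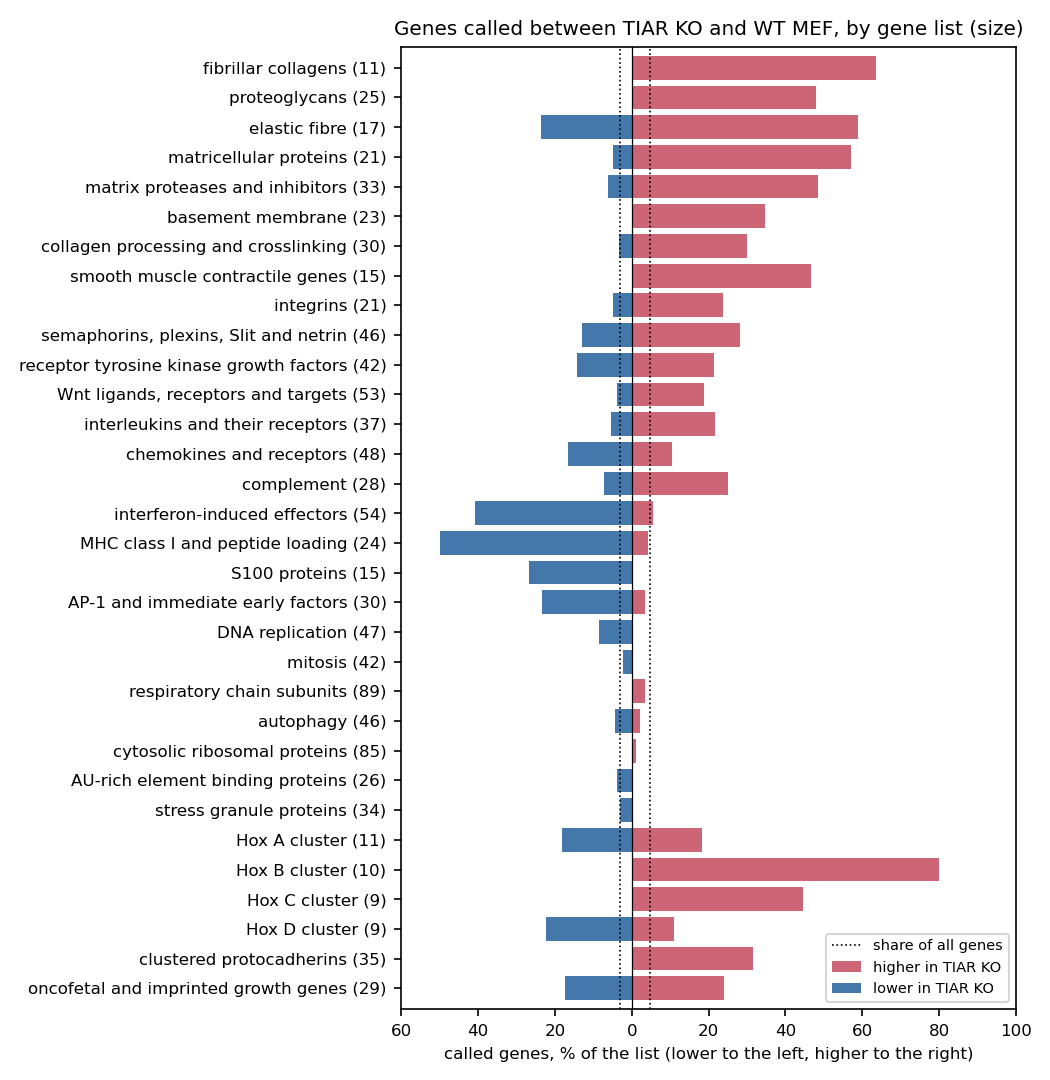
Share of each gene list that was up-regulated (right, red) or down-regulated (left, blue) in TIAR KO against WT MEF, in percent of the genes of the list on the array, with list sizes in brackets and dotted lines at the shares of all genes (4.63% and 3.01%). Lists of extracellular matrix genes and the Hox B cluster lie to the right, and the interferon-induced and MHC class I lists to the left.

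The label of the cells was checked against 16 fibroblast markers. Col1a1, Prrx1, Twist1 and Vim were well above background on all 4 arrays, so that both lines carried mesenchymal transcripts. Thy1, a surface glycoprotein of fibroblasts (chromosome 9, 43856591 to 43856650), was at 7.03 and 7.45 in WT and at 14.83 and 14.79 in TIAR KO MEF, and was well above background on 1 of the WT arrays. Pdgfra, a receptor for platelet-derived growth factor, was at 6.62 and 6.77 in WT and at 11.75 and 11.61 in TIAR KO MEF (at least 29.6-fold higher, limma adjusted p = 0.000151). Its relative Pdgfrb was at 10.14 and 9.32 in WT and at 13.39 and 13.06 in TIAR KO MEF (3.50 ± 0.30). The groups were apart for each of these receptors, and in WT MEF Pdgfra was not well above background. Fap, Lum and Tcf21 were not well above background on any array. The summed level of the list was 569427 and 592585 in WT MEF and 1290650 and 1217170 in TIAR KO MEF on the linear scale, with S100a4 as its brightest gene. In all, 7 of 16 markers were up-regulated (Dcn, Thy1, Pdgfra, Pdgfrb, Col1a1, Col1a2 and Prrx1), and Twist2, a transcription factor of mesenchyme, was down-regulated (−1.21 ± 0.22, limma adjusted p = 0.0332), a fall that did not stay above 2-fold in each fit with an array left out.
Markers of another cell type, the mesothelial cells that line body cavities, moved as well. Upk3b, a uroplakin of the mesothelial surface (chromosome 5, 136520522 to 136520581), was at 7.21 and 6.54 in WT and at 13.90 and 14.16 in TIAR KO MEF, and Upk1b, another uroplakin, was at 6.74 and 6.75 in WT and at 11.62 and 11.88 in TIAR KO MEF. The transcription factor Wt1 was at 6.63 and 6.74 in WT and at 11.13 and 10.74 in TIAR KO MEF (at least 17.6-fold higher, limma adjusted p = 0.000318). These markers were not well above background on either WT array and were well above it on both TIAR KO arrays. Podxl (at least 10.6-fold higher), Bnc1 (at least 7.11-fold higher) and Lrrn4 (at least 5.31-fold higher) were also up-regulated, Podxl by its brightest probe and not by its median probe, so that 6 of 8 mesothelial markers rose, while Calb2 (calretinin) was not well above background on any array. The brightest marker, Msln (mesothelin), was at 16.50 and 15.91 in WT and at 14.76 and 14.47 in TIAR KO MEF and was down-regulated (−1.59 ± 0.25, limma adjusted p = 0.0186). The summed level of the 8 markers, on the linear scale, was 93411 and 62288 in WT MEF and 50650 and 49434 in TIAR KO MEF. This sum adds the signals of different probes and leans on Msln, which made 99.2% and 98.9% of it in WT and 54.8% and 45.9% in TIAR KO MEF, so that it does not stand for the other markers. In RNA of whole cultures, fewer cells of a type and less RNA per cell cannot be told apart, and the part of these markers in the results below was not tested.
Of 16 epithelial markers, 4 were up-regulated. Krt18 (2.62) and Krt8 (1.12), the keratin pair of simple epithelia, the adhesion molecule Cdh1 (at least 2.96-fold higher) and the splicing factor Esrp2 (at least 2.27-fold higher) rose, whereas Epcam, Krt5, Cldn3, Cldn4 and Elf3 were not well above background on any array. The summed level of this list was 7714 and 8306 in WT MEF and 10982 and 10574 in TIAR KO MEF. Its brightest gene Krt19, which was not called, made 66.3% and 66.4% of this sum in WT and 63.6% and 59.1% in TIAR KO MEF. Among 12 endothelial markers Flt1 rose (2.62) and Egfl7 fell (−1.94), with Cdh5, Tie1, Erg, Cldn5, Emcn and Esam not well above background on any array. Among 14 macrophage and leukocyte markers Cd14 (−1.27) and Aif1 (at least 3.01-fold lower) fell. Ptprc (CD45), Adgre1, Lyz2, Tyrobp, Laptm5 and Fcgr1 were not well above background on any array. Cd68 (1.06), Csf1r (0.205), Fcer1g (0.235) and Cd3e (−0.26) were well above background on all 4 arrays and did not pass the test. Acta1 (3.54) and Des (1.15) rose among 12 skeletal muscle markers, of which Myod1, Myog, Myf5, Myf6, Pax7, Myh3, Ckm and Chrna1 were not well above background on any array. Pparg (1.90) rose among 9 adipocyte markers and Alpl (at least 5.26-fold higher) among 12 of bone and cartilage, while Adipoq and Lep, of fat cells, and Sp7 and Ibsp, of bone cells, were not well above background on any array. None of 14 neural and glial or 12 pluripotent cell markers was called.

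Many extracellular matrix genes were up-regulated. Of 11 fibrillar collagen genes, 7 were up-regulated and none down-regulated, with a median log2 fold change of 2.14 against −0.02 for all genes. Col3a1, the collagen of reticular fibres (chromosome 1, 45405589 to 45405648), was at 9.84 and 9.57 in WT and at 15.22 and 16.71 in TIAR KO MEF (6.26 ± 0.47, limma adjusted p = 0.00143). Col1a1, of the main collagen of skin and bone, was at 15.42 and 15.26 in WT and at 17.63 and 17.76 in TIAR KO MEF (2.35 ± 0.16). Col1a2 (2.27), Col5a3 (2.50), Col27a1 (at least 4.11-fold higher), Col5a1 (2.14) and Col11a1 (at least 2.27-fold higher) also rose, and all 7 kept a rise above 2-fold whichever array was left out. Col5a2, a partner of Col5a1, differed by 0.57 without passing the test.
Some enzymes that mature collagen also rose. Adamts2, the protease that trims procollagen at its amino end (chromosome 11, 50617472 to 50617531), was at 7.04 and 7 in WT and at 14.39 and 14.28 in TIAR KO MEF (at least 159-fold higher). Adamts14, a protease of the same kind, was at 8.76 and 8.84 in WT and at 13.58 and 13.52 in TIAR KO MEF (4.75 ± 0.16). Loxl2, which crosslinks collagen, was at 11.19 and 11.50 in WT and at 14.49 and 14.87 in TIAR KO MEF (3.33 ± 0.21). The 3 genes rose without overlap between groups. Of the 30 genes of this list 9 were up-regulated, among them Lox (2.04), and 1 was down-regulated, Plod2 (−1.22), a lysyl hydroxylase.
Of 23 basement membrane genes, 8 rose and none fell. Col4a1 and Col4a2, which lie head to head on chromosome 8 and encode the chains of the same collagen, rose together. Col4a1 was at 7.86 and 7.79 in WT and at 14.27 and 14.22 in TIAR KO MEF (6.42 ± 0.16, limma adjusted p = 0.000135). Col4a2 was at 8.43 and 8.14 in WT and at 13.06 and 12.98 in TIAR KO MEF (4.74 ± 0.18, limma adjusted p = 0.000184). Each was well above background in both groups. The nidogens Nid1 (2.98) and Nid2 (2.88), which link laminin to this collagen, also rose. The median of the list was 0.28, since 15 members were not called.
Proteoglycans gave 12 up-regulated genes of 25 and none down-regulated. Dcn (decorin), a small leucine-rich proteoglycan that binds collagen fibrils, was at 7.07 and 7.27 in WT and at 15.70 and 15.85 in TIAR KO MEF (8.61 ± 0.17), and was well above background on 1 of the WT arrays. Its relative Fmod (fibromodulin) was at 7.27 and 7.60 in WT and at 12.80 and 13.03 in TIAR KO MEF (5.48 ± 0.19), and Aspn (asporin) was at 7.13 and 7.22 in WT and at 11.38 and 11.81 in TIAR KO MEF (at least 21.4-fold higher). Ogn, also of this family, was at 11.09 and 11.78 in WT and at 15.38 and 15.71 in TIAR KO MEF (4.11 ± 0.27). Aspn and Ogn are neighbours on chromosome 13.
The elastic fibre list moved both ways. Of its 17 genes 10 rose and 4 fell. Ltbp4, a binding protein of latent TGF-beta needed for elastic fibres, was at 10.32 and 10.41 in WT and at 14 and 13.89 in TIAR KO MEF, while its relative Ltbp2 was at 13.83 and 13.10 in WT and at 10.59 and 10.40 in TIAR KO MEF. Fbn2, the fibrillin of embryonic microfibrils, was at 6.88 and 7.16 in WT and at 10.46 and 10.48 in TIAR KO MEF (at least 10.9-fold higher, limma adjusted p = 0.000415). Fbln2 (3.23) and Fbln5 (2.92), fibulins, rose, and Emilin2 (−2.47), Mfap2 (−1.23) and Ltbp1 (−1.07) fell.
Among 21 matricellular genes, 12 rose and 1 fell. Tgfbi, a secreted adhesion protein induced by TGF-beta (chromosome 13, 56740460 to 56740519), was at 9.07 and 9.38 in WT and at 15.84 and 15.85 in TIAR KO MEF (6.62 ± 0.18). Spp1 (osteopontin) was at 15.77 and 15.43 in WT and at 11.20 and 11.47 in TIAR KO MEF (−4.26 ± 0.20, limma adjusted p = 0.000335). Ccn5 (4.83), Smoc2 (4.05) and Postn (periostin, at least 10.3-fold higher) also rose.
Of 33 matrix proteases and their inhibitors 16 rose and 2 fell, and the gelatinase Mmp2 (chromosome 8, 95376840 to 95376899) was the one to fall most. Mmp2 was at 11.83 and 11.91 in WT and at 8 and 8.13 in TIAR KO MEF (−3.81 ± 0.16, limma adjusted p = 0.000251). Mmp23, a membrane-bound metalloproteinase, was at 7.57 and 7.08 in WT and at 14.20 and 14.22 in TIAR KO MEF (at least 118-fold higher). Serpinf1, an inhibitor of blood vessel growth, was at 11.74 and 11.81 in WT and at 16.84 and 16.78 in TIAR KO MEF (5.04 ± 0.16). Adamts9 (at least 26.6-fold higher) and Serpine2 (at least 10.3-fold higher) rose too.
Contractile genes of smooth muscle and myofibroblasts rose in 7 of 15 cases, with none down-regulated and a median of 1.14. Acta2, smooth muscle actin (chromosome 19, 34316060 to 34316119), was at 12.82 and 13.21 in WT and at 18.52 and 18.31 in TIAR KO MEF (5.40 ± 0.20, limma adjusted p = 0.000184). Actg2, its enteric relative, was at 7.77 and 8.32 in WT and at 13.02 and 13.15 in TIAR KO MEF (5.04 ± 0.23). Tagln (3.31) and Cnn1 (3.07), which bind actin, followed, and all 7 genes kept a rise above 2-fold whichever array was left out. Actins share sequence, so a probe of Acta2, Actg2 or Acta1 may also read a relative. Of 21 integrins 5 rose, with Itgb3 (2.86) and Itga1 (2.08) among them, and Itgb7, a leukocyte integrin, fell (−3.17).

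**Figure D2:**
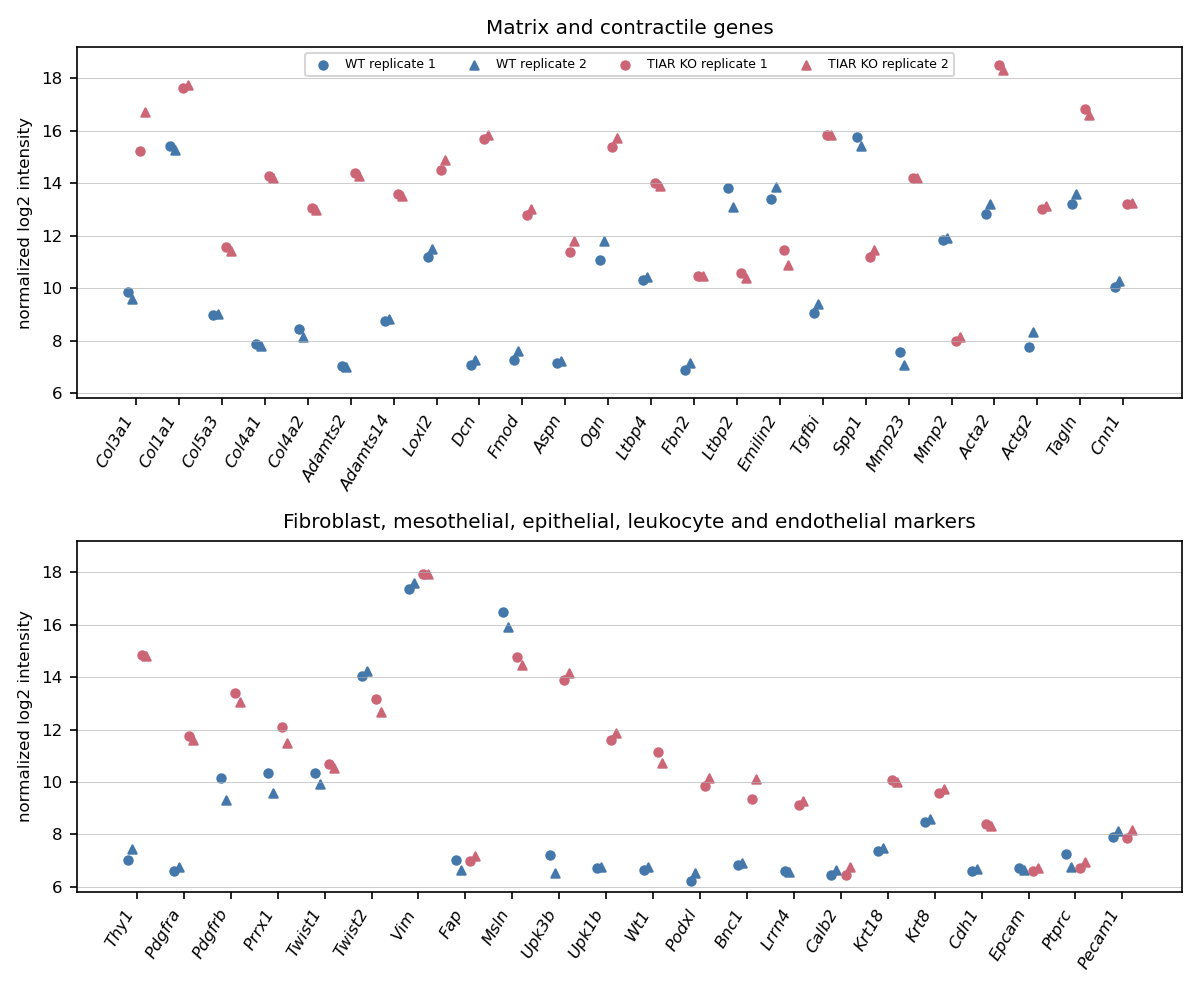
Normalized log2 intensity of matrix and contractile genes (top) and of cell type markers (bottom) on each of the 4 arrays, WT in blue and TIAR KO in red, with replicate 1 as circles and replicate 2 as triangles. Dcn read 7.07 and 7.27 in WT and 15.70 and 15.85 in TIAR KO MEF, whereas Ltbp2, Emilin2, Spp1, Mmp2, Twist2 and Msln were lower in TIAR KO MEF.

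Growth factors and receptors moved in both directions. Of 42 growth factors for receptor tyrosine kinases, 9 were up- and 6 down-regulated, with a median of 0.00. Fgf18 was at 8.24 and 8.12 in WT and at 13.19 and 12.81 in TIAR KO MEF (4.82 ± 0.19), and Pdgfc, a ligand of the receptor encoded by Pdgfra, was at 8.77 and 8.33 in WT and at 13.22 and 12.96 in TIAR KO MEF (4.54 ± 0.21). Fgf7, a growth factor that fibroblasts make for epithelia, was at 12.73 and 12.68 in WT and at 8.16 and 8.10 in TIAR KO MEF (−4.58 ± 0.15, limma adjusted p = 0.000159). Gdnf, a factor for neurons, was at 12.02 and 12.05 in WT and at 7.64 and 7.56 in TIAR KO MEF (−4.43 ± 0.15). The ligand Gas6 rose by 4.32 ± 0.53, with readings of 15.14 and 13.42 that lay apart between the TIAR KO arrays, and Ereg (−2.52) fell. Of 35 receptor tyrosine kinases 7 rose, the platelet-derived growth factor receptors most, and Tyro3 fell (−1.25).
In the Wnt pathway 10 of 53 genes rose and 2 fell. The ligand Wnt5a was at 7.18 and 6.90 in WT and at 11.58 and 10.73 in TIAR KO MEF (at least 17-fold higher), the secreted inhibitor Sfrp4 was at least 8.82-fold higher, and Lef1, a transcription factor of the pathway, rose by 3.46 ± 0.18. Rnf43, which removes Wnt receptors (−2.15), and the ligand Wnt10b (at least 5.21-fold lower) fell. In the Notch pathway 5 of 20 genes rose and none fell. The receptor Notch3, typical of mural cells, was at 7.52 and 7.27 in WT and at 12.20 and 12.57 in TIAR KO MEF (at least 31.8-fold higher), and the ligands Jag1 (2.32) and Dll1 (at least 4.72-fold higher, by its brightest probe and not by its median probe) and the target Hey1 (at least 3.58-fold higher) rose with it. Of 16 Hedgehog genes Gli2 (2.29) and Gas1 (1.79) rose and the ligand Dhh fell (at least 15.9-fold lower).
Of 49 genes of the TGF-beta and BMP pathways 8 rose, with the ligands Tgfb2 (4.07), Inhbb (at least 14-fold higher) and Tgfb3 (2.44) and the receptor Acvr2b (2.53) among them. The ligand gene Inhba (−2.72) and the receptor gene Bmpr2 (−2.50) fell. Guidance genes had 13 up- and 6 down-regulated members of 46. The repellent Slit3 rose (at least 22.2-fold higher), while the receptors Robo1 (at least 5.06-fold lower) and Robo3 (at least 3.71-fold lower) fell. Among 37 interleukins and receptors 8 rose and 2 fell. Lifr, the receptor of leukaemia inhibitory factor, was at 8.13 and 8.23 in WT and at 13.31 and 13.10 in TIAR KO MEF (5.03 ± 0.17), Osmr, which pairs like Lifr with gp130, rose by 2.64, and the cytokines Il18 (at least 13.7-fold higher) and Il33 (at least 10.4-fold higher) rose from readings not well above background.

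Many interferon-induced genes were down-regulated. Of 54 interferon-induced effectors, of which 45 were detected on both arrays of WT or of TIAR KO MEF, 22 were down- and 3 up-regulated, and the median was −0.78 against −0.02 for all genes. These genes are normally switched on by type I or II interferon through factors that bind the interferon-stimulated response element in their promoters. The promoters below, from the RefSeq table of GRCm38.p6, belong to the 9 down-regulated members in which GAAA, 2 bases of any kind and GAAA stood, on either strand, within the 250 bases before the transcription start. They are shown, in transcript direction with the match nearest the start in capitals (overlapping matches included), because these genes were down-regulated. Those beyond Isg15 and Oas1a were chosen after their values were seen.
Isg15 (chr4:156200835-156200924, minus strand): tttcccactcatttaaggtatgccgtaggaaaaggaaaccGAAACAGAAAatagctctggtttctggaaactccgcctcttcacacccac
Ifit1 (chr19:34640764-34640853, plus strand): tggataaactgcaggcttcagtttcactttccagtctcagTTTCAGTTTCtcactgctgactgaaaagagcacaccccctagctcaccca
Oas1a (chr5:120907526-120907579, minus strand): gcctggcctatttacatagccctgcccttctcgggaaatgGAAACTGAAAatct
Oas3 (chr5:120777685-120777774, minus strand): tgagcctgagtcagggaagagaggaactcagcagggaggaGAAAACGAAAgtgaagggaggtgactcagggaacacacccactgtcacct
Rsad2 (chr12:26456523-26456612, minus strand): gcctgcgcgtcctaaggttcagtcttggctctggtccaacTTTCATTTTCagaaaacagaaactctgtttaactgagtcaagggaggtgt
Bst2 (chr8:71537547-71537636, minus strand): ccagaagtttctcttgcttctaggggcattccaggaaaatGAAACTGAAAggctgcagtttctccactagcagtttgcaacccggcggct
Gbp3 (chr3:142559965-142560043, plus strand): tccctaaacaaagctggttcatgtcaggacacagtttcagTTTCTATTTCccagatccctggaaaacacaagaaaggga
Igtp (chr11:58199482-58199555, plus strand): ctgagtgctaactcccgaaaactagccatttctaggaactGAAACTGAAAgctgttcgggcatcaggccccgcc
Trim30a (chr7:104465194-104465269, minus strand): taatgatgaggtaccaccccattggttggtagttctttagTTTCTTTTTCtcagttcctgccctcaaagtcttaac
The match began 14 bases before the start in Oas1a and 124 bases before it in Bst2, the nearest and the farthest of these. Over 300-base windows that reach 50 bases past the start, 11 of 18 promoters of the down-regulated members held the motif (61.1%), 13 of 27 promoters of the members that were not down-regulated (48.1%), and 710 of 21119 promoters of all genes on the array with an entry (3.36%). Among all up-regulated genes the share was 3.57%, and among all down-regulated genes 4.32%. A match is a stretch of letters, not a measured binding site.
Oas1a, a sensor of double-stranded RNA that activates RNase L (chromosome 5, 121346735 to 121346794), was at 12.24 and 13.01 in WT and at 7.04 and 7.08 in TIAR KO MEF (at least 47.3-fold lower, limma adjusted p = 0.000392). Isg15, a ubiquitin-like modifier (chromosome 4, 155573649 to 155573708), was at 14.17 and 14.03 in WT and at 9.60 and 10.12 in TIAR KO MEF (−4.24 ± 0.22, limma adjusted p = 0.000464). Oasl1, related to the Oas enzymes, was at 11 and 11.53 in WT and at 7.40 and 7.14 in TIAR KO MEF (at least 15.9-fold lower). The groups did not overlap for any of these genes, and the Oas genes were not well above background in TIAR KO MEF. Rtp4 was at 11.74 and 11.54 in WT and at 8.73 and 7.10 in TIAR KO MEF and so differed more between the TIAR KO arrays than Oas1a, Isg15 and Oasl1 did (−3.73 ± 0.51, limma adjusted p = 0.0119). Against this trend Ifitm1, which blocks virus entry (at least 3.14-fold higher), the GTPase Ifi47 (1.63) and the transcription factor Irf1 (1.06) rose. Of the 22 down-regulated members 21 kept a fall above 2-fold whichever array was left out, and limma called 9 of the list without WT replicate 1, 8 without WT replicate 2 and 2 without TIAR KO replicate 2.
MHC class I presentation, which interferon also induces, held further down-regulated genes. Of 24 genes 12 were down- and 1 up-regulated, with a median of −1.09. H2-Q6, a class I heavy chain, was at 14.37 and 13.84 in WT and at 11.19 and 11.03 in TIAR KO MEF (−3 ± 0.22). Nlrc5, the transactivator of class I genes, was at 10.16 and 9.95 in WT and at 7.18 and 6.96 in TIAR KO MEF (at least 7.92-fold lower). The immunoproteasome subunits Psmb8 (−2.65) and Psmb9 (−2.21) fell with them. Heavy chain genes are near-identical copies of each other and differ between mouse strains, so a value for a single H2 gene is uncertain. The one gene to rise was Psme2, a proteasome activator subunit, which was at 14.67 and 14.75 in WT and at 16.25 and 16.31 in TIAR KO MEF (1.57 ± 0.16). All 12 down-regulated genes kept a fall above 2-fold whichever array was left out. Of 11 class II genes H2-Ab1 (at least 8.08-fold lower) and H2-DMb1 (−2.98) fell, while H2-Aa, H2-Oa, H2-Ob, H2-DMb2, H2-Eb2 and the transactivator Ciita were not well above background on any array.
Chemokines split. Of 48 chemokine and receptor genes 8 fell and 5 rose. Ccl5 was at 14.75 and 13.54 in WT and at 8.41 and 8.03 in TIAR KO MEF (−5.92 ± 0.40, limma adjusted p = 0.00102), and Cxcl10, which interferon induces, was at 13.37 and 13.67 in WT and at 9.82 and 10.66 in TIAR KO MEF (−3.28 ± 0.30). Ccl27a (at least 11.4-fold lower) and Cxcl5 (−3.15), a neutrophil attractant, also fell. Cxcl12, which holds stem cells in the marrow, was at 13.02 and 13.19 in WT and at 15.28 and 15.58 in TIAR KO MEF (2.33 ± 0.18), and Ccl9 (2.98), Ccl7 (2.70) and Ccl17 (2.19) rose as well. Of 28 complement genes 7 rose, with C1qtnf1, of the C1q and TNF related family (4.08) among them, and C3, the central component (−2.79), and the inhibitor Cd59a (−1.41) fell.

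**Figure D3:**
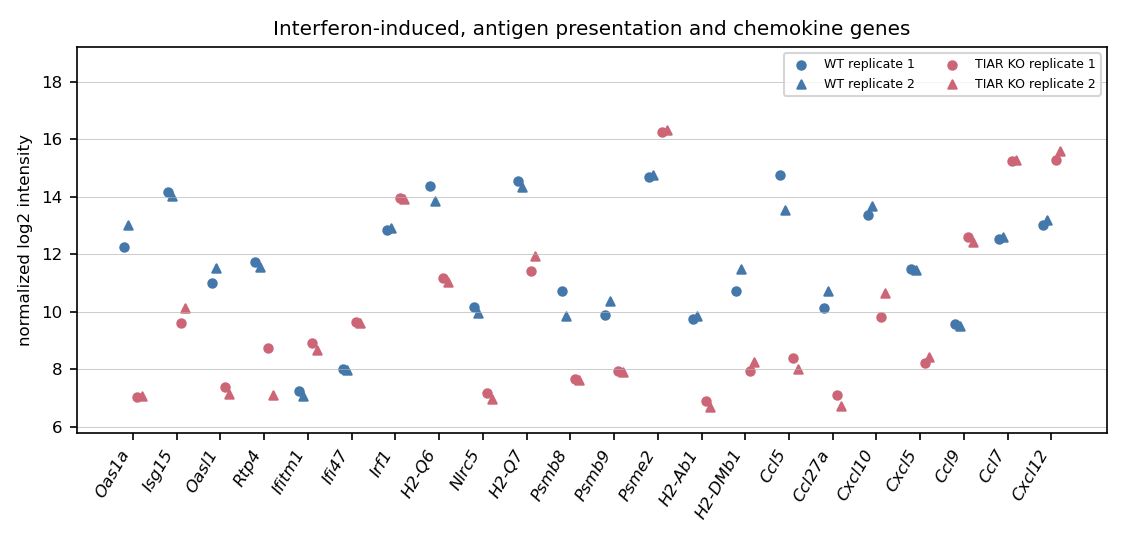
Normalized log2 intensity of interferon-induced, antigen presentation and chemokine genes on each of the 4 arrays, WT in blue and TIAR KO in red, with replicate 1 as circles and replicate 2 as triangles. Oas1a read 12.24 and 13.01 in WT and 7.04 and 7.08 in TIAR KO MEF, and Ifitm1, Ifi47, Irf1, Psme2, Ccl9, Ccl7 and Cxcl12 were higher in TIAR KO MEF.

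Transcription factors of body patterning differed by gene cluster. Of 10 Hox B genes 8 were up-regulated and none down-regulated, with a median of 2.90. Hoxb6 (chromosome 11, 96162563 to 96162622) was at 8.62 and 8.76 in WT and at 14.44 and 14.38 in TIAR KO MEF (5.72 ± 0.16, limma adjusted p = 0.000135). Hoxb2 was at 6.95 and 6.65 in WT and at 12.40 and 12.58 in TIAR KO MEF (at least 46.4-fold higher), and Hoxb7 was at 8.26 and 8.42 in WT and at 12.17 and 12.19 in TIAR KO MEF (3.84 ± 0.16). Hoxb1, not well above background on any array, and Hoxb13, at the ends of the cluster, were the members not called. In the Hox C cluster Hoxc9 (4.03), Hoxc6 (3.50), Hoxc13 (2.15) and Hoxc5 (at least 2.17-fold higher) rose and none fell.
In the Hox A and D clusters genes moved both ways. Hoxa10 was at 10.61 and 10.54 in WT and at 6.61 and 6.33 in TIAR KO MEF (at least 17-fold lower, limma adjusted p = 0.000263), and Hoxd10 was at 11.66 and 11.81 in WT and at 6.95 and 7.09 in TIAR KO MEF (at least 26.3-fold lower, limma adjusted p = 0.000168). Hoxa9 (−3.06 ± 0.22) and Hoxd11 (at least 2.64-fold lower) fell beside them, and all of these are genes of the posterior part of their cluster. Hoxa2 (2.31), Hoxa7 (1.93) and Hoxd3 (at least 2.39-fold higher), nearer the anterior end, rose. The called genes of the 4 clusters kept a change above 2-fold in the same direction whichever array was left out. Hox transcripts overlap within a cluster, and a probe cannot tell which transcript of such a stretch it reads.
Of 30 Tbx, Hand, Gata and Nkx factors, of limb, heart and other organs, 6 rose, 2 fell and 22 were not called. Hand2, of limb bud and heart (chromosome 8, 59803220 to 59803279), was at 11.84 and 11.90 in WT and at 7.02 and 7.09 in TIAR KO MEF (at least 28.1-fold lower), and Tbx5, the forelimb factor, was at 10.96 and 10.88 in WT and at 6.68 and 6.74 in TIAR KO MEF (at least 18.5-fold lower). Gata6 was at 7.89 and 8.04 in WT and at 12.84 and 12.85 in TIAR KO MEF (4.88 ± 0.16), and Gata4 was at 7.37 and 7 in WT and at 10.78 and 10.82 in TIAR KO MEF (at least 12.3-fold higher). Tbx1 (at least 16.1-fold higher) and Gata3 (3.42) rose too. Of 85 further homeobox, forkhead and Sox factors 14 rose and 2 fell, with Foxa2, a factor of endoderm (at least 41.8-fold higher), Irx1 (at least 29.96-fold higher) and Irx2 (at least 22.5-fold higher) at the top and Lhx2, a limb bud factor (−2.50), at the bottom.
Imprinted and oncofetal genes also went both ways, 7 up and 5 down of 29. Peg3 was at 6.36 and 6.72 in WT and at 10.91 and 10.65 in TIAR KO MEF (at least 17.4-fold higher), and Plagl1, a growth-restraining zinc finger gene (chromosome 10, 12850832 to 12850891), was at 13.32 and 13.11 in WT and at 7.60 and 7.62 in TIAR KO MEF (−5.61 ± 0.17). Sgce (3.48) and Peg10 (at least 4.36-fold higher), imprinted neighbours on chromosome 6, rose, and Slc38a4 (−3.04) fell. Of 35 clustered protocadherins 11 rose and none fell, among them Pcdhb21 (3.97). Their exons are near copies, so single members are uncertain.

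**Figure D4:**
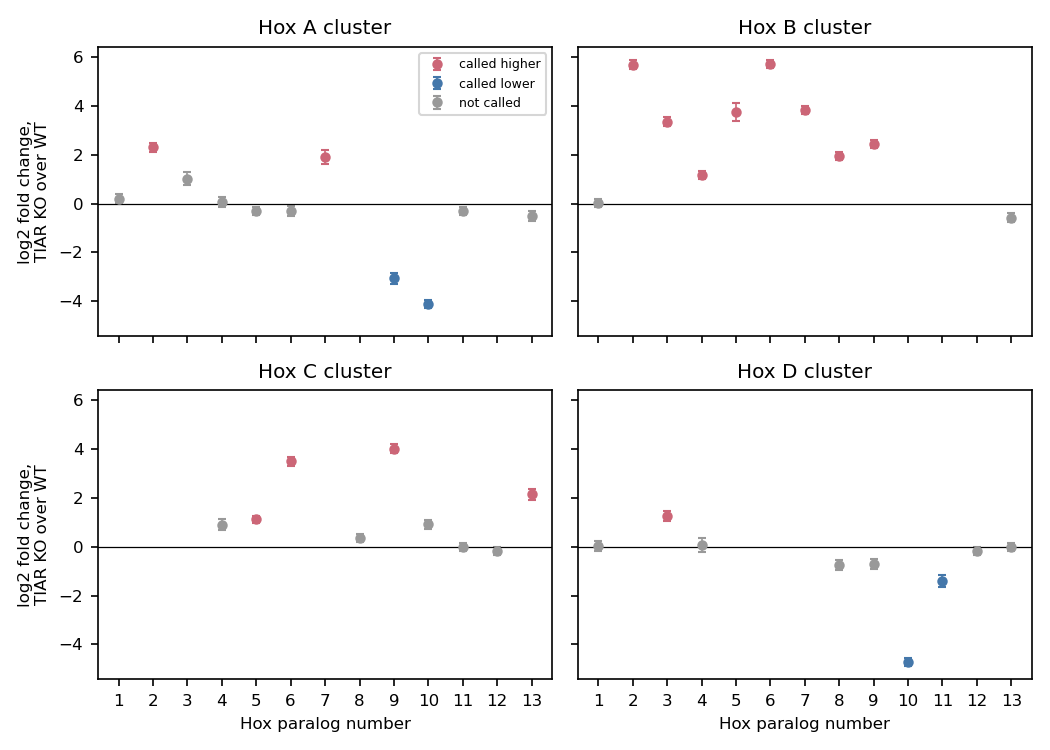
Log2 fold change of TIAR KO over WT MEF for the Hox genes on the array, by cluster and paralog number, with standard errors (n = 2 arrays per group) as bars, up-regulated genes in red, down-regulated in blue and others in grey. The Hox B genes from paralog 2 to 9 lie above 0, and Hoxa9, Hoxa10, Hoxd10 and Hoxd11 lie below it.

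Of 47 DNA replication genes none rose and 4 fell (8.51%, beside 3.01% of all genes). All 47 were detected on both arrays of WT or of TIAR KO MEF, and of all genes so detected 5.59% fell. A negative log2 fold change was seen for 35, and the median was −0.46, against −0.02 for all genes. Prim1, a subunit of primase, was at 15.36 and 15.40 in WT and at 14.11 and 13.43 in TIAR KO MEF (−1.61 ± 0.25, limma adjusted p = 0.0191). Rfc5 (−1.55), Prim2 (−1.18) and Orc1 (−1.14) were the others to fall. Of 42 mitosis genes 1 fell (2.38%), the kinesin Kif20a (−1.18 ± 0.23, limma adjusted p = 0.0373), 35 had a negative value and the median was −0.66. Most genes of these lists did not pass the test. From the scanner software's processed intensities limma called 0 genes of both lists, with 20 of the replication and 15 of the mitosis genes lower at an unadjusted p under 0.05.
Among 34 CDK inhibitors and p53 targets, Cdkn1a (p21) was at 12.51 and 12.55 in WT and at 10.37 and 10.57 in TIAR KO MEF (−2.06 ± 0.16, limma adjusted p = 0.00174), and Perp, a p53 target of cell junctions (chromosome 10, 18576697 to 18576756), was at 13.49 and 13.44 in WT and at 8.07 and 8.37 in TIAR KO MEF (−5.25 ± 0.18). Gadd45g rose (1.05). Cdkn2a (p16 and p19Arf) was at 15.73 and 15.73 in WT and at 16.13 and 16.27 in TIAR KO MEF and Cdkn2b was at 12.32 and 12.66 in WT and at 12.91 and 12.91 in TIAR KO MEF, neither of which passed the test (limma adjusted p = 0.175 and 0.295). Immediate early genes fell in 7 of 30 cases, of which 5 kept a fall above 2-fold whichever array was left out. From the processed intensities limma called 2 genes of this list down-regulated. Egr1 was at 12.43 and 12.33 in WT and at 8.75 and 8.94 in TIAR KO MEF (−3.54 ± 0.17, limma adjusted p = 0.000335), and Jun (−2.06), Klf2 (−1.58) and Ier3 (−1.43) fell with it.
Lists of basic cell functions stayed near the median of all genes. Of 89 respiratory chain subunits Cox7a1 (1.38), Ndufv3 (1.25) and Ndufv2 (1.22) rose and none fell, and the median was −0.03. Of 46 autophagy genes Map1lc3a, one of the LC3 genes, rose (1.63) and Mitf (−1.43) and the protease Atg4d (−1.10) fell, with a median of 0.01. Of 85 genes of cytosolic ribosomal proteins 1 was called, Rpl39l (chromosome 16, 10174657 to 10174716), which read 6.53 and 7.12 in WT MEF and 14.22 on the one TIAR KO array whose spot was not an outlier (at least 168-fold higher). Rpl39l is a relative of Rpl39 known from testis.
Lists close to the function of TIAR are read against the shares of all genes, 4.63% up and 3.01% down. Most genes of these lists were detected on both arrays of WT or of TIAR KO MEF. Among all genes so detected the shares were 8.65% and 5.59%. Of 26 genes of AU-rich element binding proteins, 1 fell (3.85%), Elavl2, a neuronal Hu protein (at least 2.68-fold lower, limma adjusted p = 0.0191). Of 34 stress granule genes 1 fell (2.94%), Dcp1b, of the decapping complex (−2 ± 0.23), and of 47 genes of splicing regulators 1 rose, Esrp2. Of 11 mRNAs known as targets of TIA1 or TIAR, 1 rose and 1 fell (9.09% each). Mmp13 (collagenase) was at 7.24 and 6.84 in WT and at 10.24 and 10.26 in TIAR KO MEF (at least 8.88-fold higher), and Ptgs2 (cyclooxygenase) was at 11.02 and 11.42 in WT and at 9.36 and 9.39 in TIAR KO MEF (−1.85 ± 0.19, limma adjusted p = 0.00459). Tnf was not well above background on any array, and Myc (0.73), Fgfr2 (0.27), Nf1 (0.23), Cycs (−0.23), Fas (−0.25) and Gadd45a (−0.32) did not pass the test. The genes picked for quantitative PCR were chosen on these samples, so their direction here is not independent evidence. Of these genes, Fbn2 rose and Ereg (−2.52) and Hmga2 (−2) fell, while Mest (0.27), Sfrp1, Sfrp2 and Xist did not pass the test and Sfrp1 and Xist were not well above background on any of the 4 arrays.

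**Figure D5:**
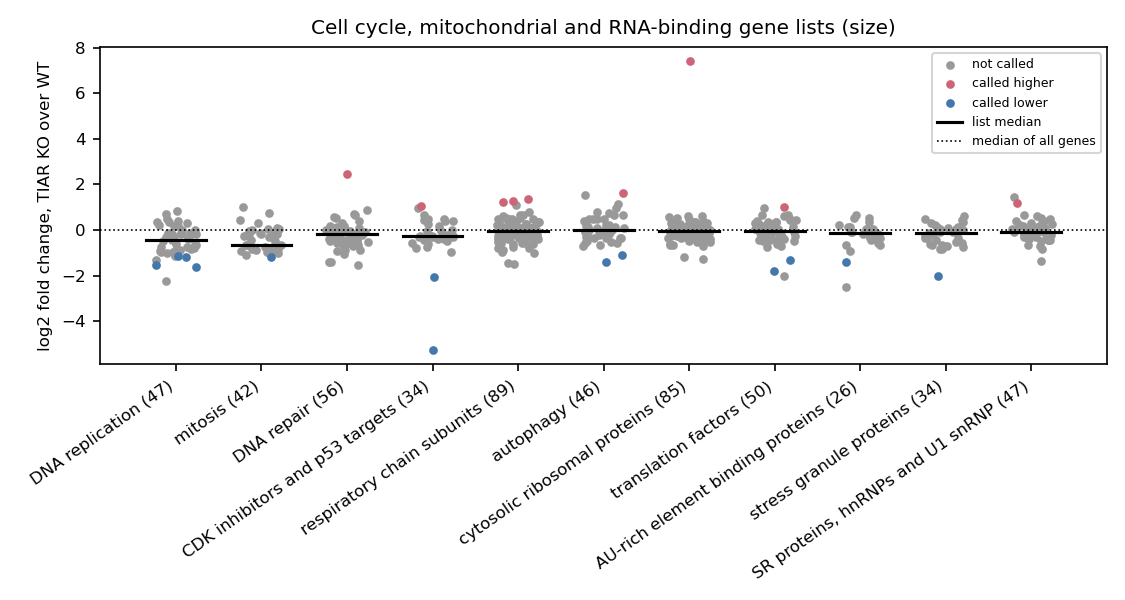
Log2 fold change of TIAR KO over WT MEF for each gene of 11 lists, as points spread sideways for legibility, with the list median as a black bar and the median of all genes (−0.02) as a dotted line. The medians of the DNA replication (−0.46) and mitosis (−0.66) lists lie below those of the other lists, and Rpl39l and Perp lie far from the rest of theirs.

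Several lipid and retinoid genes changed. Lpl (lipoprotein lipase) was at 7.07 and 7.29 in WT and at 15.35 and 15.29 in TIAR KO MEF (at least 282-fold higher), and 7 of 33 adipogenic genes rose, among them the early factor Ebf1 (at least 17.5-fold higher) and Pparg, while Dgat2 fell (−2.62). Aldh1a1, which makes retinoic acid, was at 7.36 and 7.10 in WT and at 15.05 and 14.71 in TIAR KO MEF (at least 201-fold higher). Crabp2, which carries retinoic acid to the nucleus, was at 15.51 and 15.66 in WT and at 9.50 and 9.30 in TIAR KO MEF (−6.18 ± 0.17). The retinol carrier Rbp4 (at least 18.8-fold higher) and the retinal reductase Dhrs3 (at least 19.8-fold higher) rose from levels not well above background. In cholesterol handling Vldlr rose (3.48) and the exporter Abcg1 fell (−3.65), with 5 up and 3 down of 34. Ptgis, the prostacyclin synthase, rose by 4.41 ± 0.27, and among glutathione and antioxidant genes Mgst1 (5.89) and Gstt1 (4.13) rose and Sod3 fell (−2.72).
Large changes were also seen outside these groups. Fabp7, a fatty acid binding protein of glia, was at 6.50 and 6.84 in WT and at 13.48 and 13.85 in TIAR KO MEF (at least 122-fold higher), and Isyna1, of inositol synthesis, was at 9.65 and 9.29 in WT and at 16.11 and 15.80 in TIAR KO MEF (6.49 ± 0.21). The neighbouring genes Clca3a1 (at least 89.3-fold higher) and Clca3a2 (at least 92.4-fold higher) on chromosome 3 rose together, as did Ppfibp2 (at least 124-fold higher). Among the falls were Lrba, a scaffold of vesicle traffic, which was at 14.16 and 14.27 in WT and at 8.67 and 8.75 in TIAR KO MEF (−5.50 ± 0.16), the phosphatase Dusp9 on the X chromosome (at least 29.7-fold lower), Tmem37 (−5.59), Pianp (at least 43.3-fold lower), Rnf39 (at least 43-fold lower) and Lce1i (at least 58.7-fold lower). Of the sex-linked genes Ddx3y on the Y chromosome was at 6.57 and 6.38 in WT and at 11.65 and 11.77 in TIAR KO MEF (at least 30.8-fold higher), Uty was well above background on 1 TIAR KO array, and Eif2s3y, Kdm5d, Usp9y, Zfy1 and Xist were not well above background on any of the 4 arrays.

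Position was described in runs of 20 adjacent genes, without a test. Over genes detected on both arrays of WT or of TIAR KO MEF, a gene that is high in 1 line alone enters through that line, so these medians are partly set by the changes themselves. The highest, 1.49, lay on chromosome 11 from Phospho1 to Hoxb2 (95692092 to 96215181), and the lowest, −1.22, in the MHC region of chromosome 17 from Lta to Tcf19 (35340275 to 35651537). With genes whose mean over the 4 arrays was at or above the median of such means, a choice made after seeing the data, the highest was 1.04, with 10 of 20 genes up-regulated (95371173 to 96215181 on chromosome 11), and the lowest −0.99, with 10 of 20 down-regulated (35357121 to 35671590 on chromosome 17). The named ends of these runs were chosen after values were seen. Within 2 Mb of Tial1, 0 genes detected in either line were up- and 7 down-regulated (6.54%), beside 8.68% up- and 5.56% down-regulated of all genes with a position that were detected in the same way. By chromosome, the share of up-regulated genes went from 2.94% on chromosome 4 to 7.02% on chromosome 19 among the autosomes, and that of down-regulated genes from 1.42% on chromosome 14 to 4.90% on chromosome 4.

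TIAR KO MEF were also set directly against TIA1 KO MEF, hybridised in a different slide row, so that slide row, strain and genotype cannot be told apart there. The TIA1 KO arrays stood apart, with 16021 and 19996 probes well above background, fewer than on any of the other 4, and a correlation of 0.957 between them over probes. Its part in the differences between the knockouts was not tested. Limma called 445 genes higher (1.46%) and 471 lower (1.55%) in TIAR KO MEF. Both counts were 0 with the replicate number as a block, so no difference between the knockouts given below was called in that setting. From the processed intensities these were 103 and 753, and without TIA1 KO replicate 2 3296 and 2946. Without TIAR KO replicate 1 or 2 limma called 0, with 4049 and 4007 genes at an unadjusted p under 0.05. Both knockouts are set against the same WT arrays, so their values are given side by side and not as an overlap.
Several genes with a large difference from WT MEF also differed between the knockouts, given as TIAR KO minus TIA1 KO on the log2 scale or, where the lower of the knockouts was not well above background, as a bound. Thy1 read 6.87 and 7.18 in TIA1 KO MEF, lower than in TIAR KO MEF by at least 153-fold (limma adjusted p = 0.0101), and Lpl read 6.73 and 6.72, lower by at least 255-fold (limma adjusted p = 0.0101). Upk3b read 6.03 and 7.17 in TIA1 KO MEF and was lower there by at least 89.3-fold (limma adjusted p = 0.0157), and Hoxb6, well above background on 1 TIA1 KO array, read 7.63 and 8.66 and differed by 6.26 ± 0.40 (limma adjusted p = 0.0166). On the other side, Fgf7 read 14.32 and 14.38 in TIA1 KO MEF, a difference of −6.22 ± 0.16 (limma adjusted p = 0.0101), and Perp 14.43 and 14.51, a difference of −6.25 ± 0.19 (limma adjusted p = 0.0108). In these genes the TIAR KO arrays lay apart from those of both other lines.
For Col3a1, Col4a1 and Acta2 the difference between the knockouts did not pass the test. Col3a1 read 15.71 and 15.76 there and differed by 0.23 ± 0.55 (limma adjusted p = 0.806), and Col4a1 read 14.84 and 14.88 and differed by −0.62 ± 0.16 (limma adjusted p = 0.155). Acta2 read 17.69 and 17.82 in TIA1 KO MEF (0.66 ± 0.18, limma adjusted p = 0.167). Hand2 was not well above background in either knockout. Of the interferon-induced genes Oas1a read 9.64 and 9.82 in TIA1 KO MEF, between the other lines, and was lower in TIAR KO MEF, with a difference of at least 6.36-fold (limma adjusted p = 0.0165). Isg15 read 12.10 and 11.90, a difference of −2.14 ± 0.25 (limma adjusted p = 0.0484). A difference that misses the threshold does not show that the lines were alike.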

How the data were processed

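RNA of WT, TIAR KO and TIA1 KO MEF (2 arrays each, all on 1 slide, WT and TIAR KO in the same row of it) was hybridised to 1-colour Agilent mouse arrays, read with Feature Extraction 10.7.3.1. The authors deposited log2 values: global normalization, normexp background correction with an offset of 50, loess per array and quantile scaling with limma. They also deposited scanner intensity values and quality flags, used here for detection and alternatives. Spots of a probe were averaged without outlier spots. A probe counted as detected where at least 50% of its spots were well above background. No spot was saturated.
WT and TIAR KO arrays were compared with limma 3.58.1 (lmFit and eBayes, 2-sided), p-values adjusted over all 55681 probes. Differential calls needed a change of more than 2-fold with an adjusted p under 0.05. The number of arrays limits the precision: the median standard error was 0.185 on the log2 scale. The methods describe the 2 arrays of a group as independent experiments, and the p-values measure the spread between these.
The genes named in the text were drawn from Tial1, Tia1, Gapdh, the genes measured by quantitative PCR and the 15 largest rises and falls. They also came from up to 4 called members per list and direction, lists under 12 genes, cell type markers, Cdkn2a and Cdkn2b. Genes marked as named or chosen after their values were seen were added to these. The members and the 84 gene lists were chosen with earlier results of these data known. Alternatives concerned normalization, scaling, filters, outlier spots, the samples fitted, the variance prior, the fold threshold, the replicate block, the probe per gene and each array left out. Promoters came from RefSeq (GRCm38.p6), with 21119 promoters matched by symbol to 17333 genes. Results for some single genes are not reported here.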

Additional observations from a re-analysis of the deposited data

How the results depend on the processing

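Fewer genes were called with an array left out than under another scaling. Leaving an array out also leaves fewer arrays to estimate the spread from, so the part of the spread itself was not tested. With an array left out, the called probes numbered from 0 to 920 (up-regulated 0 to 611, down-regulated 0 to 309) and the called genes from 0 to 720 (0 to 496 and 0 to 224), with the lowest counts without TIAR KO replicate 1. The share of up-regulated probes among those called was 58.6% and went from 65.7% to 77.1% with an array left out, the last without TIAR KO replicate 2. Fitting all 3 groups together left 2034 called probes (750 down-regulated) and 559 down-regulated genes, and testing against a fold change of 2 (limma's treat) left 947 probes (643 up, 304 down) and 749 genes (515 up, 234 down). Normexp with loess and quantile scaling kept 1378 of the 1408 up- and 880 of the 916 down-regulated genes, the processed intensities 996 and 560, and no called gene changed sign under either. With the median probe of each gene in place of the brightest, 54 of the up-regulated genes changed sign, Podxl (−0.28) and Dll1 (−0.07) among those named. Gapdh (−0.05 by median probe, −0.10 by processed intensities), Cdkn2a (−0.04 by median probe) and Tia1 (−0.058 by normexp, and −0.81 to 1.05 with an array left out, the lowest without WT replicate 2), not called, also changed sign. The cause of these changes was not tested.
Same-numbered WT and TIAR KO arrays did not deviate together (correlation of their deviations 0.0327, with 2 pairs). With so few arrays this value cannot tell whether the numbers pair the samples. The main fit left the numbers out. With the replicate number as a block limma called 1451 probes up- and 898 down-regulated, and 1106 and 622 of the called genes stayed called. TIAR KO against TIA1 KO MEF (445 higher, 471 lower; correlation −0.0570) gave 0 and 0 with the block, 706 higher by normexp, and 103 higher and 753 lower by processed intensities. With an array left out that comparison went from 0 to 3296 higher and from 0 to 2946 lower, the highest without TIA1 KO replicate 2. With genes taken by their mean over the 4 arrays, the highest median of 20 adjacent genes moved to 1.04 and the lowest to −0.99.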

Other observations

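Signalling receptors and stress genes outside the groups of the report gave further differences between TIAR KO and WT MEF. The counts of this section stand beside 4.63% up- and 3.01% down-regulated among all genes. Among genes detected on both arrays of WT or of TIAR KO MEF these shares were 8.65% and 5.59%. Of 21 Eph receptors and ephrins, which act at cell borders, 5 rose, with Efna5 (2.79), Efnb1 (2.76) and Epha4 (2.64) in front, and Epha2 fell (−1.87). Of 18 MAP kinase phosphatase and Sprouty genes, feedback inhibitors of growth factor signals, Spry1 was at 7.64 and 7.52 in WT and at 11.61 and 11.52 in TIAR KO MEF (3.98 ± 0.16), Dusp4 rose (1.45) and Dusp7 (−1.05) fell with Dusp9. Rgs2, which ends signals of Gq-coupled receptors, was at 12.57 and 12.86 in WT and at 8.58 and 8.55 in TIAR KO MEF (−4.15 ± 0.18, limma adjusted p = 0.000256) and was the one gene called of 21 regulators of this family. Creb3l1, a membrane-bound transcription factor of secretory cells, was at 9.17 and 9.12 in WT and at 13.44 and 13.50 in TIAR KO MEF (4.33 ± 0.15). Of 41 genes of the unfolded protein and integrated stress responses 7 rose, Xbp1 among them (1.69), while Chac1 fell (−1.60). Of these 7 genes, 4 kept a rise above 2-fold whichever array was left out. From the processed intensities limma called 1 gene of the list up-regulated. Of 29 heat shock genes 4 rose, led by Hspb2 (3.77) and Hspa12b (2.08), and Hspa4l fell (−2.68). Of 23 genes of caspases and death receptors 4 rose, Casp4 most (2.54), and of 18 BCL2 family genes Bmf (2.48) and Bok (1) rose and Bnip3 fell (−1.20).
Among 46 lysosomal genes, 42 of them detected in this way, 3 rose and 3 fell (6.52% each), near the shares of detected genes. Ctsc, the cathepsin that activates serine proteases of granules, was at 11.35 and 11.29 in WT and at 6.74 and 6.79 in TIAR KO MEF (at least 23.5-fold lower). All 4 called genes of 15 S100 calcium-binding proteins fell, among them S100a1 (−2.80). Of 61 serpins 9 rose, among them Serpina3g (5.18), and 5 fell, among them Serpinb9e (at least 4.07-fold lower) and Serpinb9f (at least 3.92-fold lower). These serpin genes have near-identical copies, so single members are uncertain. Of 22 genes of the G1 phase Rb1 (−1.52), E2f2 (−2.41) and E2f8 (−1.18) fell and E2f6 rose (1.30), and of 56 DNA repair genes Mgmt alone was called (2.47). Of 350 solute carriers 20 rose and 20 fell, which is 5.71% and 5.71%. Of 1085 olfactory receptor genes, which fibroblasts are not known to use, 36 were detected on both arrays of WT or of TIAR KO MEF, 1 rose (Olfr1466, 1.14) and 1 fell (Olfr224, −4.53).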
